A study of Homo sapiens with 12 samples.

Results

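The antigen presentation and immune ligand genes described here are 34 human genes that build, load or regulate MHC molecules or encode surface ligands read by T cells and natural killer cells. They were chosen by gene name from a deposited table of 59498 gene identifiers. The samples were 12 poly(A) RNA-seq libraries of SKOV-3, an established epithelial ovarian adenocarcinoma line, in 4 groups of 3. Parental cells were SKOV-3 of WT genotype with no drug resistance. Resistant cells were SKOV-3 CDDP, the cisplatin-resistant derivative, also of WT genotype. Parental knockout and resistant knockout cells were the KDM5A, KDM5B double-knockout derivatives of each, lacking a pair of histone H3 lysine demethylases. The labels do not say whether a derivative was 1 clone or a pool, so a difference between groups and a difference between the clones or cultures sequenced cannot be told apart. All groups grew in the same serum-containing medium, and the labels name no interferon or drug given at harvest. Of the 34 genes, 30 passed the filter on low counts and were tested; the others, HLA-DRA, HLA-DRB1, HLA-DPA1 and HLA-DPB1, had almost no reads.

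MHC class I molecules are present on nearly all nucleated cells and show CD8 T cells short peptides made inside the cell. Proteasomes cut the proteins, the TAP transporter carries the peptides into the endoplasmic reticulum, aminopeptidases trim them, and chaperones fit them to a heavy chain paired with beta-2 microglobulin. Interferon gamma exchanges catalytic subunits of the proteasome for the immunoproteasome subunits and raises most of these genes through IRF1 and the class I transactivator NLRC5. MHC class II molecules are made mainly by professional antigen-presenting cells under the transactivator CIITA and show peptides from outside the cell to CD4 T cells. MICA, MICB and ULBP2 are stress ligands of the natural killer receptor NKG2D, and CD274 encodes PD-L1, the ligand of the T cell checkpoint PD-1.

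The targeted genes were examined first. KDM5A was at 30.9, 41.5 and 39.4 CPM (normalised read counts on the CPM scale, with library sizes corrected by TMM factors) in parental libraries 1, 2 and 3 and at 22.5, 20.9 and 15.6 in parental knockout libraries. It was at 39.9, 39.0 and 33.4 CPM in resistant libraries and at 17.6, 14.8 and 12.0 in resistant knockout libraries. Every knockout library was below every control library of its background, by 1.13 on average on the log2 scale (exact permutation p = 0.005, two-sided within backgrounds, the smallest this permutation can give). KDM5B was at 50.9, 79.7 and 43.0 CPM in parental and at 57.4, 78.7 and 25.3 in parental knockout libraries, then at 111, 78.8 and 39.5 in resistant and 84.8, 56.9 and 28.3 in resistant knockout libraries. These ranges overlapped (exact permutation p = 0.445), and a count of reads over the gene does not show whether the reading frame is intact. The permutation took no account of replicate number. By number, KDM5B was lower in each resistant knockout library and in parental knockout libraries 2 and 3, and higher in parental knockout library 1. A paired difference was not tested. Libraries held 15659352 to 19706754 counts. Of 9 epithelial carcinoma markers, 7 or 8 had a group mean of at least 1 CPM in every group, with PAX8 between 157 and 616 CPM. Other markers of this list differed between the backgrounds: from parental to resistant cells the mean of KRT19 went from 152 to 1.58 CPM, of EPCAM from 35.0 to 4.13, of KRT7 from 22.4 to 4.24 and of KRT8 from 224 to 1376. Of 12 leukocyte markers, 1 or 2 reached 1 CPM in any group (LST1 in all 4 groups and ITGAX in both resistant groups). ITGAX had means of 0.532 CPM in parental, 0.383 in parental knockout, 5.42 in resistant and 20.9 in resistant knockout cells. Without ITGAX the list summed per library to 1.86 to 7.29 CPM in parental and 2.26 to 2.92 in resistant cells. That sum was 2.64 to 15.5 in parental knockout and 2.96 to 5.26 in resistant knockout cells. PTPRC stayed at or under 0.301 CPM, and CD1C had no read in any library. Of 9 fibroblast markers, 1 reached 1 CPM in parental, 3 in parental knockout, 5 in resistant and 6 in resistant knockout cells, led by COL1A1. Per library the list summed to 1.97 to 8.80 CPM in parental and 2.56 to 28.7 in parental knockout cells. It summed to 350 to 960 CPM in resistant and 2527 to 4470 in resistant knockout cells. Without COL1A1 the sums were 1.85 to 6.52 CPM in parental, 4.99 to 21.7 in resistant and 27.9 to 144 in resistant knockout cells. DCN did not exceed 1.39 CPM in either resistant group. The part of these marker differences in the results below was not tested.

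By position, 18 of the 34 genes lie on chromosome 6 between 29 and 34 Mb (GRCh38, GENCODE 29), the MHC region, and ULBP2 lies on the other arm of the same chromosome. RefSeq promoter windows, the 250 bases before an annotated start on GRCh38.p14, were at hand for 29 members in 42 windows. 6 short motifs were searched on both strands. They were the core of the interferon-stimulated response element (GAAA, any 2 bases, GAAA), the class I kappa-B sequence (GGGGA followed by TTCCC), the inverted CCAAT box (ATTGG), the X2 box half-site (TGACG), the interferon gamma-activated site (TTC, any 3 bases, GAA) and the endoplasmic reticulum stress element (CCAAT, any 9 bases, CCACG), which contains a CCAAT box. The windows below belong to the members that the results turn on. Capitals mark motif matches, each printed 5′ to 3′ along the gene's own strand.
HLA-B promoter, chr6:31357180-31357429, minus strand: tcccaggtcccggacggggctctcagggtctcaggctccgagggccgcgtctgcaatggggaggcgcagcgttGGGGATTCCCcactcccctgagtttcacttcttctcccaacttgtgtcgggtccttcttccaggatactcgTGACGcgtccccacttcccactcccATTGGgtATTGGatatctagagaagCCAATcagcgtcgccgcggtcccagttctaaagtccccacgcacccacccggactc
HLA-C promoter, chr6:31272093-31272342, minus strand: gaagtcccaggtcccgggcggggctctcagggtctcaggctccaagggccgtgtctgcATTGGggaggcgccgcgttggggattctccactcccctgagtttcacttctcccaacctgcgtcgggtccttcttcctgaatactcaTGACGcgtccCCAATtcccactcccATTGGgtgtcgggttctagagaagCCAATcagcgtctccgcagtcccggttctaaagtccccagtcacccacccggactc
TAP1 promoter, chr6:32853705-32853954, minus strand: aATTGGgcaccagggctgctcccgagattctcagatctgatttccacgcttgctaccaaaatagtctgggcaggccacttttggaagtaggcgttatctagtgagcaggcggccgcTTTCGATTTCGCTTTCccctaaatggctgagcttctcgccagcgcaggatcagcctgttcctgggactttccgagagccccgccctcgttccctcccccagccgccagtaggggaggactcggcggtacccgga
PSMB9 promoter, chr6:32853942-32854191, plus strand: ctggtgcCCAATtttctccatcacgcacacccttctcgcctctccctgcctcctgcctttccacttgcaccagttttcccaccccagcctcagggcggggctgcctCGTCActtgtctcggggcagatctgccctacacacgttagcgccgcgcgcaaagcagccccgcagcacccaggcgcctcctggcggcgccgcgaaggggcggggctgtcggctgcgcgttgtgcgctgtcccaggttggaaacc
PSMB8 promoter, chr6:32844680-32844929, minus strand: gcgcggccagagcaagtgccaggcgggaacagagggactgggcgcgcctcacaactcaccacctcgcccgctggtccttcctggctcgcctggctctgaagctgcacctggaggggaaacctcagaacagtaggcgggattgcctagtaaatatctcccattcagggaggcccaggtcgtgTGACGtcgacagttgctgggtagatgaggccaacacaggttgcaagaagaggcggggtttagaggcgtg
CALR promoter, chr19:12938359-12938608, plus strand: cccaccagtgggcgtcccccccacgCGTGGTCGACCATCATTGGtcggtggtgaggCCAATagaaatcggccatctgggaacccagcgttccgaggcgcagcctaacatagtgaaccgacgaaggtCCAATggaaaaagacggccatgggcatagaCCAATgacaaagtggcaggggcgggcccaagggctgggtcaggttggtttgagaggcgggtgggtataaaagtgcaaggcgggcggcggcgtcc
ULBP2 promoter, chr6:149941764-149942013, plus strand: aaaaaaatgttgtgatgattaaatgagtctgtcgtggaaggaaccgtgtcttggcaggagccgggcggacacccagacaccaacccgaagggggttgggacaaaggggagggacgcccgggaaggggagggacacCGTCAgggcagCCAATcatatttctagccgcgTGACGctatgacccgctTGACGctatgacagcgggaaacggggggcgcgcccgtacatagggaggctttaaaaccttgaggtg
CD274 promoter, chr9:5450292-5450541, plus strand: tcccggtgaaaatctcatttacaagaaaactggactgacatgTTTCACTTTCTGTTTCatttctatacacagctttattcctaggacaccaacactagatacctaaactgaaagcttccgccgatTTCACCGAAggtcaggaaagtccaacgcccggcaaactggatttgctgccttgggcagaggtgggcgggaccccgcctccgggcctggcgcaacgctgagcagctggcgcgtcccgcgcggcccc
HLA-B and HLA-C are neighbouring class I heavy chain genes and share the ATTGG and TGACG matches, while the kappa-B match was in the HLA-B window alone among the 42, against 0.069% of all 34788 windows. TAP1 and PSMB9 are transcribed away from each other from nearest starts 488 bases apart, and their windows share 13 bases. The response element core occurs as an overlapping pair in both the TAP1 and the CD274 window. It was in 10 of the 42 member windows, against 3.02% of all windows, and the windows that hold it belong to B2M, CD274, ERAP2, HLA-F, PSMB10, PSME2, RFX5, TAP1, TAP2 and TAPBP. The interferon gamma-activated site was in 3 of the 42 member windows, near the 6.57% of all windows. These were windows of CD274, PSMB8 and TAP1. For PSMB8 and TAP1 it lay in the window of a second start, not printed. The stress element was in windows of CALR and CANX, against 0.0747% of all windows. The short boxes are common: ATTGG was in 21 of 42 member windows and 32.0% of all windows, and TGACG in 14 of 42 and 21.2%.

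Levels between genes are given per kilobase of annotated exon. In parental cells the highest was CALR, the chaperone calreticulin, at 304 ± 133 CPM per kilobase (SD, n = 3, as for every mean below). CANX, the membrane chaperone calnexin, at 172 ± 40.9, HLA-C at 165 ± 19.5 and B2M at 164 ± 20.6 lay within each other's spread. HLA-E was lower at 138 ± 23.3, with an SD range that overlapped theirs. HLA-B followed at 111 ± 28.1 and PDIA3, the disulfide isomerase of the loading complex, at 87.5 ± 18.9. The immunoproteasome subunit genes were lower, PSMB10 at 25.0 ± 6.19, PSMB8 at 23.3 ± 2.60 and PSMB9 at 3.70 ± 1.26. TAP1 was at 10.3 ± 2.15 and NLRC5 at 3.87 ± 1.56. The class II genes all stood below 1 CPM per kilobase, as did CIITA, ULBP2, CD274 and, narrowly, HLA-G. The order at the top depends on the length used: over the longest transcript in place of all exons, B2M was at 414 CPM per kilobase, next to CALR at 433.

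**Figure D1:**
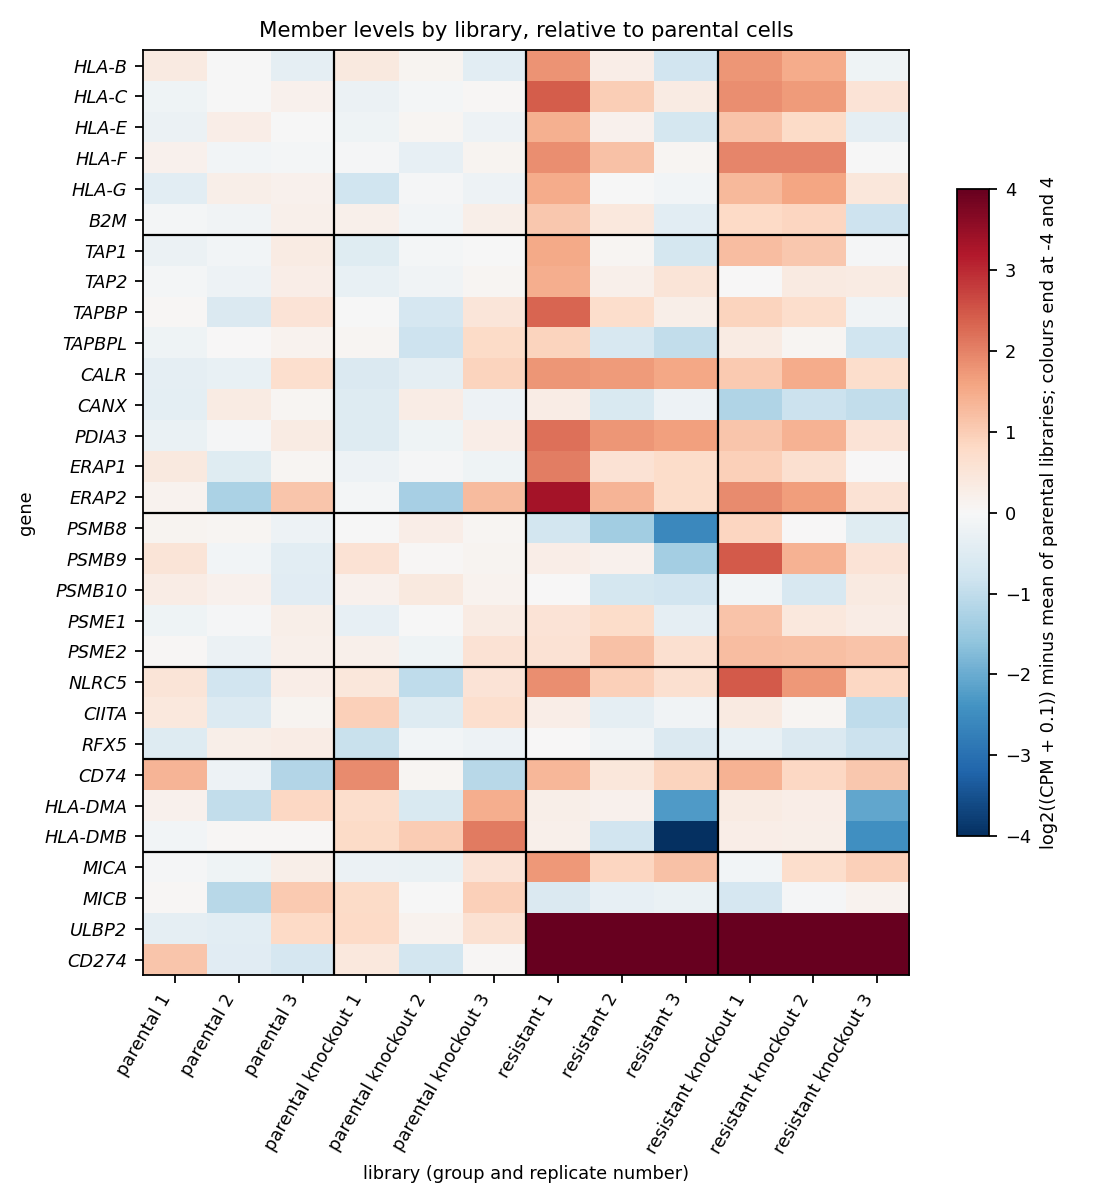
Level of each of the 30 tested genes in each of the 12 libraries, as log2(CPM + 0.1) minus the mean of the parental libraries (colour; colours end at -4 and 4), with genes in rows ordered by role and libraries in columns by group. Within the resistant group all 6 class I chains and all 9 loading genes are highest in library 1, the 6 class I chains and 6 of the 9 loading genes are lowest in library 3, and ULBP2 and CD274 are high in all 6 resistant libraries.

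The resistant libraries did not stand level for these genes. Resistant library 1 was the highest of its group for 26 of the 30 tested members, including all 6 class I chains, against 43.0% of all 17947 tested genes. Resistant library 3 was the lowest for 20 of the 30, again all 6 class I chains, against 35.4% of all genes, and resistant knockout library 3 was the lowest for 22 of the 30, against 45.9%. The median ratio of highest to lowest library over the 6 class I chains was 3.84 in resistant and 3.01 in resistant knockout cells, where that over all genes was 1.72 and 1.74. In parental cells it was 1.33, below the 1.76 of all genes. Resistant library 1 also had the lowest share of ribosomal protein reads, 2.81%, where the other libraries had 4.63% to 7.36%. Whether that share has a part in the class I values was not tested. No pair of libraries within a group agreed within sampling noise (a chi-square statistic of their counts, divided by its degrees of freedom, ran from 24.1 to 195). In resistant cells this statistic was 30.4 for libraries 2 and 3, 127 for 1 and 2, and 166 for 1 and 3. In resistant knockout cells it was 24.1 for libraries 1 and 2, 107 for 1 and 3, and 105 for 2 and 3. The counts taken as resistant libraries 2 and 3 are headed CDDK, where the labels read CDDP. Their assignment is therefore an inference, and its part in the contrast with library 1 was not tested.

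In resistant against parental cells, 9 of the 30 tested genes passed at an adjusted p under 0.05 (edgeR quasi-likelihood test, Benjamini-Hochberg over all 17947 genes), 8 higher and 1 lower. The background was 28.0% of all genes, 15.2% higher and 12.8% lower. The share of members that passed in either direction, 9 of 30, was near that background, and the higher calls were the larger part. In bulk RNA, a change in the share of cells that express a gene and a change in the RNA per cell cannot be told apart. The median difference over the members was 0.68 on the log2 scale, beside 0.02 over all genes. The 3 resistant and 3 parental libraries did not overlap for 10 of the 30 members, 9 higher and 1 lower, against 45.5% of all genes. The same comparison among knockout cells, which uses the other 6 libraries, gave 8 genes higher and none lower, against 23.9% of all genes called and 13.6% called higher. HLA-C, PDIA3, PSME2, ULBP2 and CD274 were higher in both, 62.5% of each list of 8, where the genes of the whole table that were higher in both made 69.7% of the first list and 77.8% of the second. The sign of the difference was the same in both for 27 of the 30 members. That share was not taken over all genes, so the count is not read as a trait of the members.

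**Figure D2:**
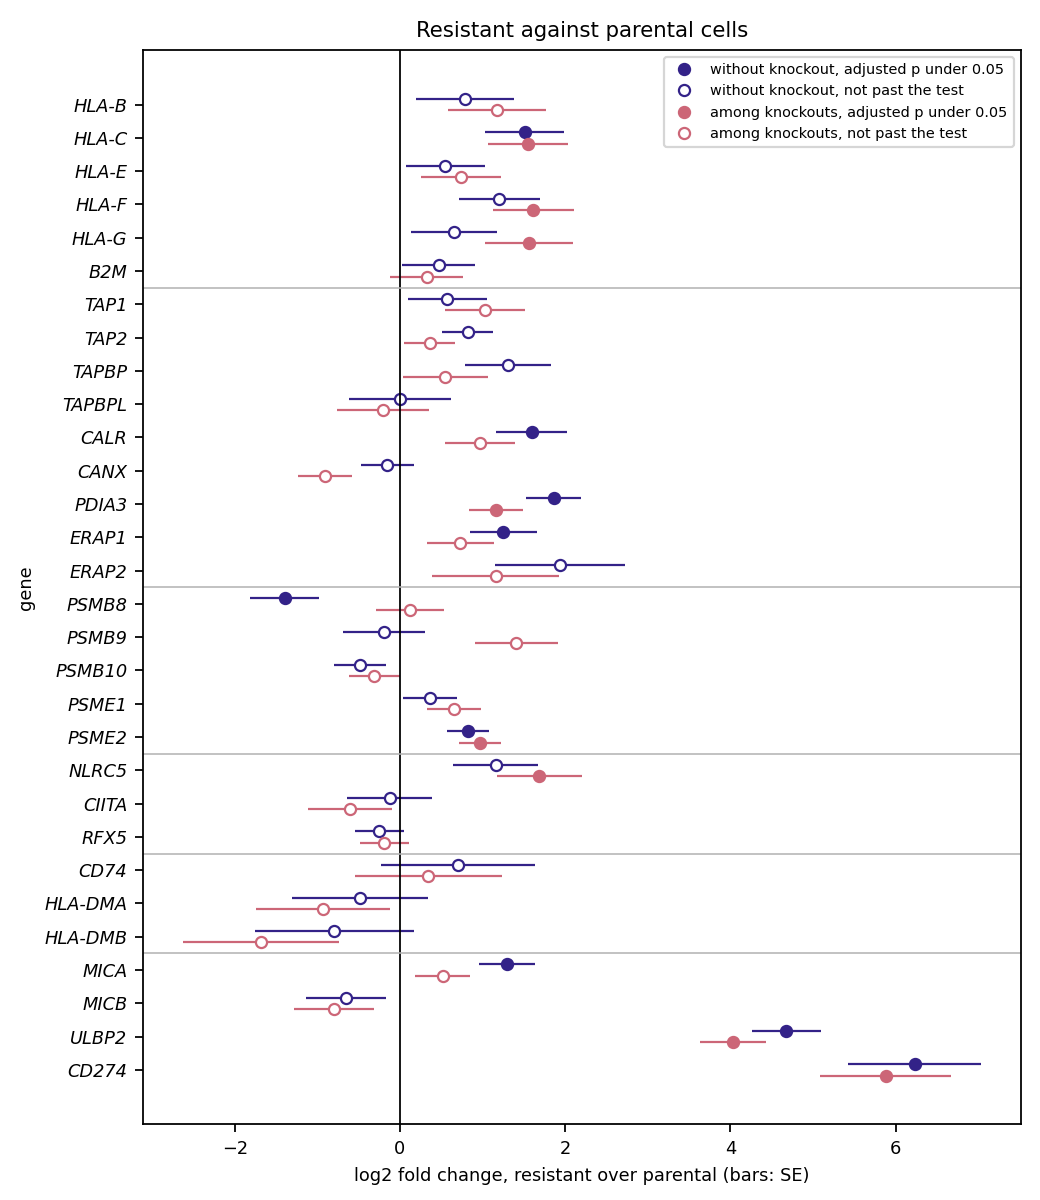
Log2 fold change of resistant over parental cells for the 30 tested genes (x axis; bars are the standard error), without knockout (dark points) and among knockouts (pink points), with genes ordered by role on the y axis. Filled points passed the edgeR test at an adjusted p under 0.05, 9 without knockout and 8 among knockouts, and ULBP2 and CD274 lie beyond all others.

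Among the class I chains, HLA-C, a classical heavy chain that presents peptide to T cells and is a ligand of killer immunoglobulin-like receptors, was higher in resistant cells in both comparisons. It lies at chr6:31268749-31272130 on the minus strand (ENSG00000204525). HLA-C was at 366, 409 and 464 CPM in parental and 2191, 821 and 519 in resistant libraries. All resistant libraries were above all parental ones, but library 1 was 4.23-fold above library 3. The fitted difference was 1.51 ± 0.48 on the log2 scale (SE), 2.85-fold (adjusted p = 0.0328). Among knockouts HLA-C stood at 347, 392 and 426 CPM in parental and 1481, 1328 and 605 in resistant libraries. That difference was 1.55 ± 0.48 (adjusted p = 0.0332), and again no library overlapped. Without resistant library 1, HLA-C differed by 0.70 (adjusted p = 0.203) and no longer passed. It also lost its call without any 1 of the 3 parental libraries, with values from 1.42 to 1.57 and adjusted p from 0.0569 to 0.095. Among knockouts it lost it without any 1 parental knockout library (1.45 to 1.62, adjusted p 0.0538 to 0.0919) and without resistant knockout library 1 (1.28, adjusted p = 0.116) or library 2 (1.40, adjusted p = 0.0951).

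HLA-B, the other classical heavy chain in the set (chr6:31269491-31357188, minus strand, ENSG00000234745), was at 428, 330.4 and 257 CPM in parental and 1159, 397 and 195 in resistant libraries. The resistant values lay on both sides of the parental ones, and the difference of 0.79 ± 0.59 did not pass (adjusted p = 0.344). In resistant knockout cells HLA-B was at 1122, 928 and 293 CPM, where parental knockout cells had 438, 355 and 248 (1.17 ± 0.59, adjusted p = 0.17). The HLA-B to HLA-C read ratio averaged 0.844 ± 0.309 in parental and 0.463 ± 0.0783 in resistant cells, and 0.916 ± 0.341 and 0.647 ± 0.143 among knockouts. Every resistant ratio, at most 0.529, was below every parental one, at least 0.555, while among knockouts parental library 3 at 0.581 lay within the resistant range. Class I heavy chain genes are near-identical and polymorphic, and in GENCODE 29 the HLA-B gene model shares exon bases with HLA-C on the same strand, so the split of reads between them is uncertain.

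HLA-F, a non-classical heavy chain seen by natural killer receptors, was at 99.5, 81.1 and 83.7 CPM in parental and 319.7, 197 and 92.7 in resistant libraries (1.20 ± 0.49, adjusted p = 0.0822). Resistant library 3 lay among the parental values, and HLA-F passed without it (1.59, adjusted p = 0.0303) or without resistant knockout library 3 (1.20, adjusted p = 0.0281). Among knockouts HLA-F was higher, 85.1, 70.3 and 94.6 CPM in parental against 337, 341 and 87.3 in resistant libraries (1.61 ± 0.49, adjusted p = 0.0309), although resistant knockout library 3 lay within the parental range. That call was lost without parental knockout library 1 (1.60, adjusted p = 0.0746) or 2 (1.5, adjusted p = 0.0974), and without resistant knockout library 1 (1.32, adjusted p = 0.111) or 2 (1.32, adjusted p = 0.112). HLA-G, a non-classical heavy chain best known from the placenta, was near the floor at 1.25, 2.05 and 1.97 CPM in parental and 5.02, 1.71 and 1.58 in resistant libraries (0.65 ± 0.52, adjusted p = 0.379). Among knockouts it passed narrowly, from 0.952, 1.68 and 1.49 CPM to 4.41, 5.32 and 2.41 (1.56 ± 0.53, adjusted p = 0.0497), a call kept under 8 of 20 alternative settings. The libraries that each ended it when left out were parental 1, 2 and 3, parental knockout 1, 2 and 3, resistant 2, and resistant knockout 1 and 2, with values between 1.30 and 1.72. HLA-E, which carries leader peptides of other class I chains to the receptor NKG2A, was at 345, 483 and 400.3 CPM in parental and 1092, 459 and 248 in resistant libraries (0.55 ± 0.48, adjusted p = 0.423). B2M, the light chain shared by all class I molecules, was at 942, 904 and 1138 CPM in parental and 2086, 1319 and 732 in resistant libraries (0.47 ± 0.44, adjusted p = 0.455). For both, the resistant group reached above and below the parental one. Among knockouts HLA-E differed by 0.74 ± 0.48 and B2M by 0.33 ± 0.44 without passing (adjusted p = 0.286 and 0.627). In all, 1 of 6 class I chains rose without knockout and 3 of 6 among knockouts, with medians of 0.72 and 1.36 on the log2 scale over the 6. The share of all genes called higher was 15.2% without knockout and 13.6% among knockouts, so 1 of 6 is near the background.

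Of the 9 genes of peptide transport, trimming and loading, 3 rose in resistant cells (PDIA3, CALR and ERAP1) and none fell, with a median of 1.25, against 15.2% of all genes higher and 12.8% lower. PDIA3, also called ERp57, is joined to tapasin by a disulfide bond in the loading complex (chr15:43746392-43773279, plus strand, ENSG00000167004). It was at 303, 351 and 459 CPM in parental and 1679.8, 1239 and 1131 in resistant libraries. Each resistant library was well above each parental one, and the difference was 1.86 ± 0.33, 3.64-fold (adjusted p = 0.00154), past the threshold under all 20 alternative settings. Among knockouts PDIA3 was at 257, 321 and 441 CPM in parental and 791, 961 and 529.9 in resistant libraries (1.16 ± 0.33, adjusted p = 0.0211). This second call was lost without parental knockout library 1 (0.97, adjusted p = 0.079) or 2 (1.12, adjusted p = 0.0699) and without resistant knockout library 1 (1.11, adjusted p = 0.0618) or 2 (0.94, adjusted p = 0.084).

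CALR, the soluble lectin chaperone that holds the new heavy chain until peptide is bound (chr19:12938578-12944489, plus strand, ENSG00000179218), was at 600.1, 632 and 1241 CPM in parental and 2653, 2555 and 2260.0 in resistant libraries. The resistant libraries were tight and all above the parental ones, by 1.59 ± 0.43, 3.02-fold (adjusted p = 0.0157). The call was lost without parental library 1 (1.41, adjusted p = 0.0611) or parental library 2 (1.44, adjusted p = 0.0724). Among knockouts CALR went from 523, 602 and 1445 CPM to 1607, 2163 and 1269 and did not pass (0.97 ± 0.43, adjusted p = 0.114), except without parental knockout library 3 (1.57, adjusted p = 0.0146). CANX, the membrane-bound relative of CALR, did not follow it. It was at 803, 1310.0 and 1100.4 CPM in parental and 1281, 691 and 916 in resistant libraries (-0.15 ± 0.32, adjusted p = 0.753). Among knockouts every resistant library of CANX, at 454, 581 and 532 CPM, was below every parental one, at 742, 1277 and 919 (-0.91 ± 0.32, adjusted p = 0.0589). That value passed without parental knockout library 1 (-1.09, adjusted p = 0.048) and without resistant library 1 (-0.91, adjusted p = 0.0418). CALR and CANX both carry the stress element in a promoter window.

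ERAP1, the aminopeptidase that trims peptides inside the endoplasmic reticulum, was at 15.8, 8.58 and 12.8 CPM in parental and 50.3, 17.9 and 20.3 in resistant libraries (1.25 ± 0.41, adjusted p = 0.0362). No library overlapped, but resistant library 1 was far above the other two. Without it the difference was 0.62 (adjusted p = 0.22). ERAP1 also lost its call without parental library 2 (1.04, adjusted p = 0.138), parental library 3 (1.24, adjusted p = 0.075) or resistant knockout library 2 (1.23, adjusted p = 0.0528). Among knockouts it was at 10.4, 11.7 and 10.7 CPM in parental and 23.5, 18.9 and 12.1 in resistant libraries (0.73 ± 0.40, adjusted p = 0.207). Its exons overlap those of CAST on the opposite strand. ERAP2, its partner enzyme, ranged from 16.7 to 86.8 CPM in parental and from 65.9 to 399 in resistant libraries (1.94 ± 0.79, adjusted p = 0.0825), and passed without parental library 3 (2.59, adjusted p = 0.0484).

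The transporter subunits and tapasin did not pass. TAP1 was at 41.8, 45.3 and 61.2 CPM in parental and 139.8, 51.3 and 29.7 in resistant libraries (0.57 ± 0.48, adjusted p = 0.4). TAP2 was at 73.6, 67.6 and 93.0 CPM in parental and 214, 88.6 and 111 in resistant libraries (0.82 ± 0.31, adjusted p = 0.0646). TAPBP, tapasin, which tethers the empty heavy chain to the transporter, was at 126, 83.3 and 179 CPM in parental and 614, 200.3 and 147 in resistant libraries (1.31 ± 0.52, adjusted p = 0.0767). All 3 overlapped with parental cells through resistant library 2 or 3. TAP2 passed without resistant library 2 (1.06, adjusted p = 0.0333) and TAPBP without resistant library 3 (1.68, adjusted p = 0.0352). Among knockouts TAP1 differed by 1.03 ± 0.48 (adjusted p = 0.14), TAP2 by 0.36 ± 0.31 (adjusted p = 0.424) and TAPBP by 0.55 ± 0.51 (adjusted p = 0.464). TAP1 passed there without resistant library 1 (1.03, adjusted p = 0.0462). TAPBPL, a tapasin-related peptide editor, stayed between 1.84 and 7.06 CPM in all 12 libraries, with differences of 0.00 ± 0.61 and -0.21 ± 0.56.

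The immunoproteasome genes had no common direction. Of the 5, PSMB8 fell and PSME2 rose in resistant cells, near the 12.8% of all genes called lower and the 15.2% called higher. The median was -0.19. PSMB8 encodes the chymotrypsin-like catalytic subunit that replaces PSMB5 (chr6:32840717-32844703, minus strand, ENSG00000204264). It was at 75.3, 73.4 and 61.0 CPM in parental and 41.9, 26.3 and 11.5 in resistant libraries. Every resistant library was below every parental one, and the value fell by 1.40 on the log2 scale (SE 0.42, adjusted p = 0.0255). The call was lost without parental library 1 (-1.35, adjusted p = 0.0574) or 2 (-1.36, adjusted p = 0.0668) and without resistant library 2 (-1.39, adjusted p = 0.0737) or 3 (-0.996, adjusted p = 0.0707). Among knockouts PSMB8 did not differ beyond its spread, 69.4, 83.1 and 73.8 CPM in parental against 126, 70.7 and 50.2 in resistant libraries (0.12 ± 0.41, adjusted p = 0.85). PSMB9, the subunit that replaces PSMB6 (chr6:32844136-32859585, plus strand, ENSG00000240065), was at 15.7, 10.2 and 8.18 CPM in parental and 13.3, 12.3 and 4.20 in resistant libraries (-0.19 ± 0.50, adjusted p = 0.802). Among knockouts it was at 16.2, 11.4 and 11.8 CPM in parental and 59.9, 28.7 and 16.2 in resistant libraries (1.41 ± 0.50, adjusted p = 0.0572). It passed there without resistant library 3 (1.41, adjusted p = 0.0343) or resistant knockout library 3 (1.75, adjusted p = 0.0229). It also passed there with DESeq2 (1.41, adjusted p = 0.0238), with scaling by library size alone (1.58, adjusted p = 0.0448) and with no filter beyond 1 count (1.40, adjusted p = 0.0041). PSMB8 and PSMB9 overlap on opposite strands, and the strand setting of the counting is not given in the sources used here, so some reads may be shared.

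PSMB10, which replaces PSMB7, was at 55.2, 50.6 and 33.4 CPM in parental and 45.5, 27.5 and 26.6 in resistant libraries (-0.48 ± 0.31, adjusted p = 0.267). The proteasome activator PA28 opens the gate of the particle and is made of the products of PSME1 and PSME2. PSME2 rose in both comparisons. It was at 38.8, 32.2 and 43.3 CPM in parental and 57.1, 85.9 and 59.6 in resistant libraries (0.83 ± 0.25, adjusted p = 0.0281). Among knockouts it was at 43.8, 33.5 and 56.2 CPM in parental and 89.9, 87.3 and 84.0 in resistant libraries (0.97 ± 0.25, adjusted p = 0.0156). The groups did not overlap in either. Without knockout the PSME2 call was lost without parental library 1 (0.83, adjusted p = 0.0726) or 2 (0.72, adjusted p = 0.119) or resistant library 2 (0.61, adjusted p = 0.13). Among knockouts it was lost without parental knockout library 2 (0.80, adjusted p = 0.0633) or resistant knockout library 1 (0.92, adjusted p = 0.0541). PSME2 shares exon bases with RNF31 on the opposite strand. PSME1 was at 78.9, 86.3 and 104 CPM in parental and 129, 147 and 69.4 in resistant libraries (0.36 ± 0.33, adjusted p = 0.44).

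Ratios of each inducible subunit to the constitutive subunit it replaces were taken within each library, where scaling between libraries cancels. PSMB8 over PSMB5 was 1.42, 1.07 and 0.826 in parental and 0.522, 0.179 and 0.0840 in resistant libraries. All resistant ratios were below all parental ones. The ratio was 1.29, 1.13 and 0.877 in parental knockout and 0.907, 0.588 and 0.259 in resistant knockout libraries. The denominator PSMB5 rose in resistant cells at the same time (0.90 ± 0.30, adjusted p = 0.0388). PSMB9 over PSMB6 was 0.376, 0.179 and 0.122 in parental and 0.138, 0.0602 and 0.0245 in resistant libraries, which overlapped. It was 0.411, 0.196 and 0.135 in parental knockout and 0.355, 0.186 and 0.0642 in resistant knockout libraries. Here too the denominator, PSMB6, rose in resistant cells (1.51 ± 0.37, adjusted p = 0.00898), while PSMB9 differed by -0.19. PSMB10 over PSMB7 averaged 0.160 ± 0.0154 in parental and 0.168 ± 0.143 in resistant cells, the latter spread by library 1 at 0.332. Resistant libraries 2 and 3, at 0.0786 and 0.0927, lay below all parental ones, at 0.177, 0.157 and 0.146. The means were 0.137 ± 0.0286 in parental knockout and 0.116 ± 0.0145 in resistant knockout cells. A ratio within a library shows unequal levels of its 2 genes, and no test was made on it.

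**Figure D3:**
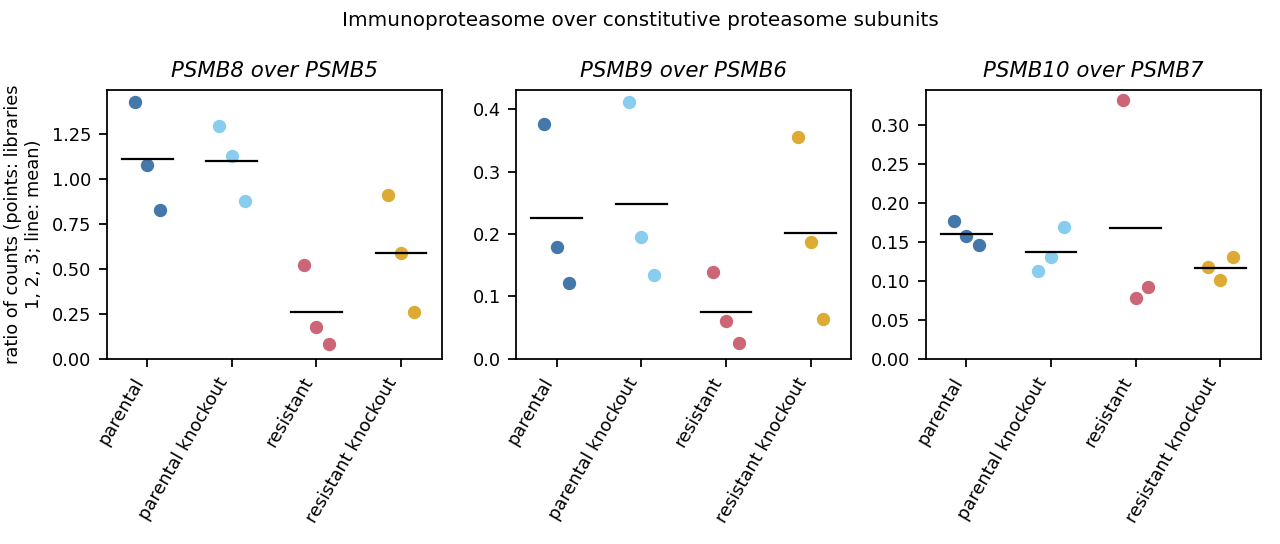
Ratio of raw counts of each immunoproteasome subunit gene to the constitutive subunit gene it replaces (y axis, no unit, starting at 0) in the 3 libraries of each group (points from left to right are libraries 1, 2 and 3; the line is the mean). PSMB8 over PSMB5 lies between 0.0840 and 0.522 in resistant libraries, below the 0.826 to 1.42 of parental ones. For PSMB10 over PSMB7, resistant library 1 lies above the parental ratios and libraries 2 and 3 lie below them.

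Of the 3 transcriptional regulators, none passed without knockout and 1 did among knockouts, against 28.0% and 23.9% of all genes called. With 3 genes, such counts stand near these backgrounds. NLRC5, the class I transactivator (chr16:56989485-57083531, plus strand, ENSG00000140853), was at 63.4, 26.2 and 54.0 CPM in parental and 164, 86.7 and 69.4 in resistant libraries. The groups did not overlap, but the difference of 1.16 ± 0.51 had an adjusted p of 0.109. Among knockouts NLRC5 was at 60.7, 22.2 and 64.8 CPM in parental and 247, 150.0 and 79.4 in resistant libraries, again without overlap (1.69 ± 0.52, adjusted p = 0.0317). The call was lost without parental knockout library 1 (1.85, adjusted p = 0.0549) or 2 (1.34, adjusted p = 0.102) and without resistant knockout library 1 (1.18, adjusted p = 0.151) or 2 (1.70, adjusted p = 0.0713). CIITA, the class II transactivator, stayed between 0.926 and 3.96 CPM in all 12 libraries, with differences of -0.12 ± 0.51 and -0.60 ± 0.51. RFX5, the DNA-binding factor on which both transactivators assemble, was at 49.2, 81.7 and 85.6 CPM in parental and 71.4, 63.5 and 46.8 in resistant libraries (-0.25 ± 0.30, adjusted p = 0.556).

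The HLA-DR and HLA-DP chain genes and CD74 were near 0 throughout, and HLA-DMA and HLA-DMB were low. HLA-DRA, the alpha chain of HLA-DR, had 4 reads in all 12 libraries together, HLA-DRB1 had 2, HLA-DPB1 had 4 and HLA-DPA1 had 34. All reads of HLA-DRA, HLA-DRB1 and HLA-DPB1 came from resistant or resistant knockout libraries. CD74, the chain that guards the class II groove during transport, was at 0.0518 to 1.15 CPM over the 12 libraries (0.70 ± 0.93 between resistant and parental, adjusted p = 0.61). The peptide exchange pair HLA-DMA and HLA-DMB was low but present in parental cells, HLA-DMA at 1.85, 0.769 and 2.95 CPM and HLA-DMB at 1.97, 2.24 and 2.23. In resistant cells HLA-DMB was at 2.51 and 1.22 CPM and had no read in library 3 (-0.79 ± 0.96, adjusted p = 0.571). HLA-DMA was lowest in library 3 as well, at 0.263 CPM (-0.48 ± 0.82, adjusted p = 0.695). Among knockouts HLA-DMB was at 3.71, 4.45 and 9.42 CPM in parental and 2.57, 2.55 and 0.309 in resistant libraries, every resistant library below every parental one (-1.68 ± 0.95, adjusted p = 0.214). It passed there with no filter beyond 1 count (-1.69, adjusted p = 0.0247). HLA-DMA and HLA-DMB passed in no comparison with the filter used here, and HLA-DMA shares exon bases with the far more abundant BRD2 on the opposite strand.

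The largest differences of the set were in the 4 immune ligands, of which CD274, ULBP2 and MICA rose and MICB did not pass, against 15.2% of all genes called higher. CD274, encoding PD-L1 (chr9:5450503-5470566, plus strand, ENSG00000120217), was at 0.956, 0.256 and 0.207 CPM in parental libraries, 24 reads in all. In resistant libraries it was at 14.7, 30.0 and 62.7 CPM. Even the lowest resistant library stood far above the highest parental one. The fitted difference was 6.23 ± 0.80, 75.2-fold (adjusted p = 0.000163). Among knockouts CD274 went from 0.551, 0.194 and 0.402 CPM to 8.41, 25.9 and 35.8 (5.88 ± 0.80, adjusted p = 0.000306). Within resistant cells CD274 ran opposite to the class I chains, lowest in library 1 and highest in library 3, and in resistant knockout cells it was again lowest in library 1 and highest in library 3.

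ULBP2, a GPI-anchored NKG2D ligand (chr6:149942000-149949235, plus strand, ENSG00000131015), was at 0.597, 0.576 and 1.45 CPM in parental and 25.4, 20.9 and 22.2 in resistant libraries. The resistant values were within 1.22-fold of each other and far above the parental ones, by 4.68 ± 0.42, 25.6-fold (adjusted p = 1.06e-05). Among knockouts it went from 1.45, 0.904 and 1.26 CPM to 15.5, 24.6 and 19.7 (4.03 ± 0.40, adjusted p = 3.4e-05). CD274 and ULBP2 passed in both comparisons under all 20 alternative settings. MICA, an NKG2D ligand of the MHC region (chr6:31399784-31415315, plus strand, ENSG00000204520), was at 35.1, 32.7 and 42.7 CPM in parental and 122, 66.3 and 82.8 in resistant libraries (1.30 ± 0.34, adjusted p = 0.0127). No library overlapped, and the call was lost without parental library 2 (1.22, adjusted p = 0.0557) or resistant library 1 (1.02, adjusted p = 0.054). Among knockouts MICA was at 31.1, 30.6 and 53.0 CPM in parental and 34.1, 59.2 and 71.1 in resistant libraries, which overlapped (0.52 ± 0.33, adjusted p = 0.276). MICB, its close relative, was at 6.93, 3.07 and 14.1 CPM in parental and 4.44, 5.36 and 5.57 in resistant libraries (-0.65 ± 0.48, adjusted p = 0.338). MICA and MICB are polymorphic and similar in sequence, and MICA shares exon bases with HCP5, so their split of reads is uncertain.

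**Figure D4:**
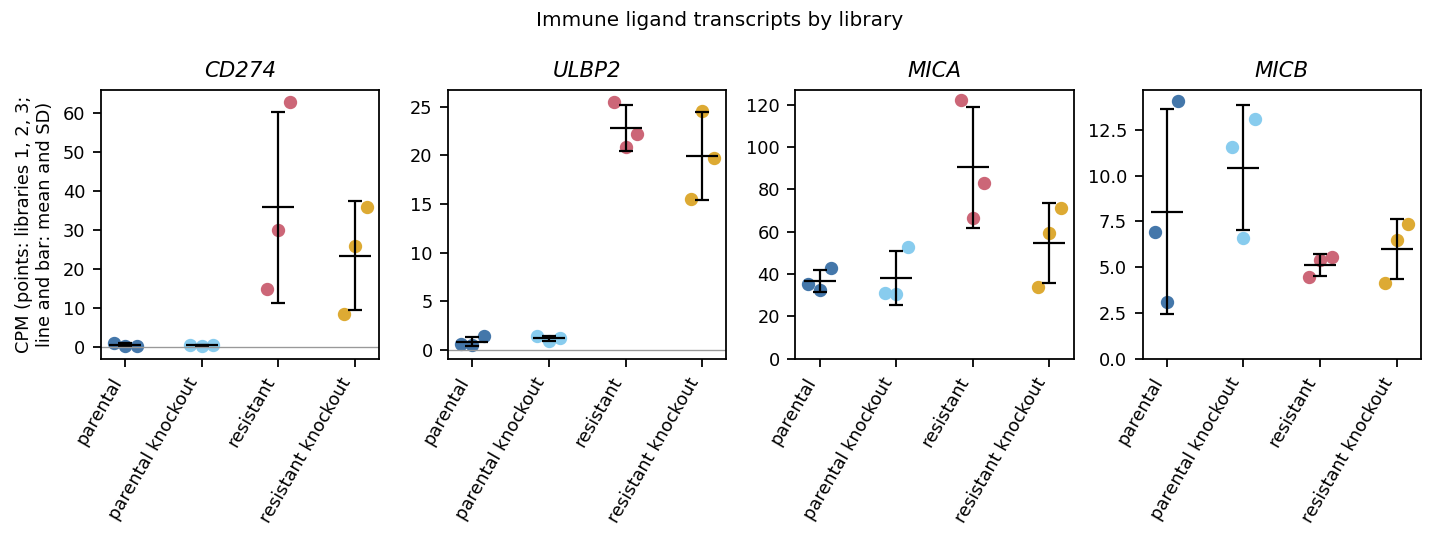
CPM of CD274, ULBP2, MICA and MICB (y axes, linear) in the 3 libraries of each group (points from left to right are libraries 1, 2 and 3; line and bar are mean and SD). CD274 lies under 1 CPM in all 6 parental libraries and between 8.41 and 62.7 CPM in all 6 resistant ones, while MICB shows no separation.

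The nearest tested protein-coding genes on either side of CD274 and ULBP2 were read in resistant against parental cells; these 2 places were chosen after their values were seen. Next to CD274, PLGRKT on one side was higher by 1.42 ± 0.40 (adjusted p = 0.0202). PDCD1LG2, the gene of the second PD-1 ligand, on the other side was higher by 5.23 ± 0.99 (adjusted p = 0.00215), from a mean of 0.0811 to 3.20 CPM. INSL4, an insulin-like peptide gene beyond PLGRKT, was also called higher (adjusted p = 0.00332); it had no read in parental libraries and a mean of 0.877 CPM in resistant ones. JAK2, RIC1, ERMP1, KIAA2026 and RCL1, the other neighbours read, did not pass, with values from -1.15 to 1.01. Near ULBP2, the paralog ULBP3 was higher by 2.03 ± 0.62 (adjusted p = 0.0269), while ULBP1 (1.16 ± 0.47, adjusted p = 0.0844), RAET1G (2.59 ± 0.96, adjusted p = 0.0606) and RAET1E (-1.65 ± 1.02, adjusted p = 0.248) did not pass. The unrelated neighbours PCMT1 (0.84 ± 0.23) and LRP11 (1.08 ± 0.37) on one side were higher as well (adjusted p = 0.0168 and 0.0456). On the other side PPP1R14C (-0.23 ± 0.45, adjusted p = 0.736) and PLEKHG1 (-1.60 ± 0.72, adjusted p = 0.116) did not pass.

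The double knockout in parental cells gave no member past the threshold. None of the 30 passed in edgeR, DESeq2 or limma-voom. In the main edgeR fit none had an unadjusted p under 0.05, against 3.00% of all genes, and none of the 17947 genes passed. That fit took no account of the pairing of same-numbered parental and parental knockout libraries. With a block for replicate number within backgrounds, 154 of all genes passed, 77 higher and 77 lower, and still no member did. Class I chains differed by -0.36 to 0.12 and the loading genes by -0.20 to 0.15. For HLA-C the means were 413 ± 49.0 CPM in parental and 389 ± 39.8 in parental knockout cells (-0.09 ± 0.47), and for PSMB8 69.9 ± 7.79 and 75.4 ± 6.97 (0.11 ± 0.41). HLA-DMB alone had no overlap between the groups, at 1.97, 2.24 and 2.23 CPM against 3.71, 4.45 and 9.42 (1.45 ± 0.94, adjusted p = 1), where 6.59% of all genes had none. Standard errors of 0.25 to 0.94 set the size of difference that could be seen in the fit without the block.

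In resistant cells the knockout gave no member past the threshold in the main edgeR fit, which had no block, where 38 of all genes, 0.212%, passed. The knockout comparisons use the same control libraries as the resistance comparison, so their values are not independent of those above. At an unadjusted p under 0.05, 5 of the 30 members were found, against 7.95% of all genes. PSMB8 was at 41.9, 26.3 and 11.5 CPM in resistant and 126, 70.7 and 50.2 in resistant knockout libraries, with no overlap (1.63 ± 0.42, unadjusted p = 0.00193, adjusted p = 0.2). The resistant knockout mean, 82.2 ± 39.1 CPM, stood beside 69.9 ± 7.79 in parental cells. PSMB9 was at 13.3, 12.3 and 4.20 CPM in resistant and 59.9, 28.7 and 16.2 in resistant knockout libraries, also with no overlap (1.81 ± 0.51, unadjusted p = 0.00339, adjusted p = 0.255). PSMB8 and PSMB9 were the 2 members that DESeq2 called in this comparison (1.62, adjusted p = 0.0236, and 1.81, adjusted p = 0.0339), while limma-voom called none. With a block for replicate number within backgrounds, edgeR called the same 2 members (adjusted p = 0.000144 and 0.000347) and 939 of all genes. With no filter beyond 1 count it called them as well (adjusted p = 0.000933 and 0.00135), with 451 of all genes. Whether the numbers pair the resistant libraries is uncertain. In the main fit the other immunoproteasome genes differed by 0.30 to 0.37.

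The other 3 members at an unadjusted p under 0.05 were lower in resistant knockout cells and did not pass after adjustment. CANX was at 1281, 691 and 916 CPM in resistant and 454, 581 and 532 in resistant knockout libraries (-0.88 ± 0.32, adjusted p = 0.473). PDIA3 was at 1679.8, 1239 and 1131 against 791, 961 and 529.9 CPM (-0.83 ± 0.32, adjusted p = 0.525). Both, and CALR (-0.57 ± 0.42, adjusted p = 0.816), had no overlap between groups. With PSMB8 and PSMB9 that made 5 of 30 members without overlap, against 15.2% of all genes, 8.02% higher and 7.17% lower. MICA was the third, at 122, 66.3 and 82.8 against 34.1, 59.2 and 71.1 CPM (-0.72 ± 0.33, adjusted p = 0.627). Over the 9 loading genes the median was -0.70, with 8 below 0, and over the 6 class I chains 0.21, with 4 above 0, beside 0.04 over all genes. CD274 (-0.62 ± 0.61) and ULBP2 (-0.20 ± 0.35) did not pass, and both stayed far above their parental levels.

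**Figure D5:**
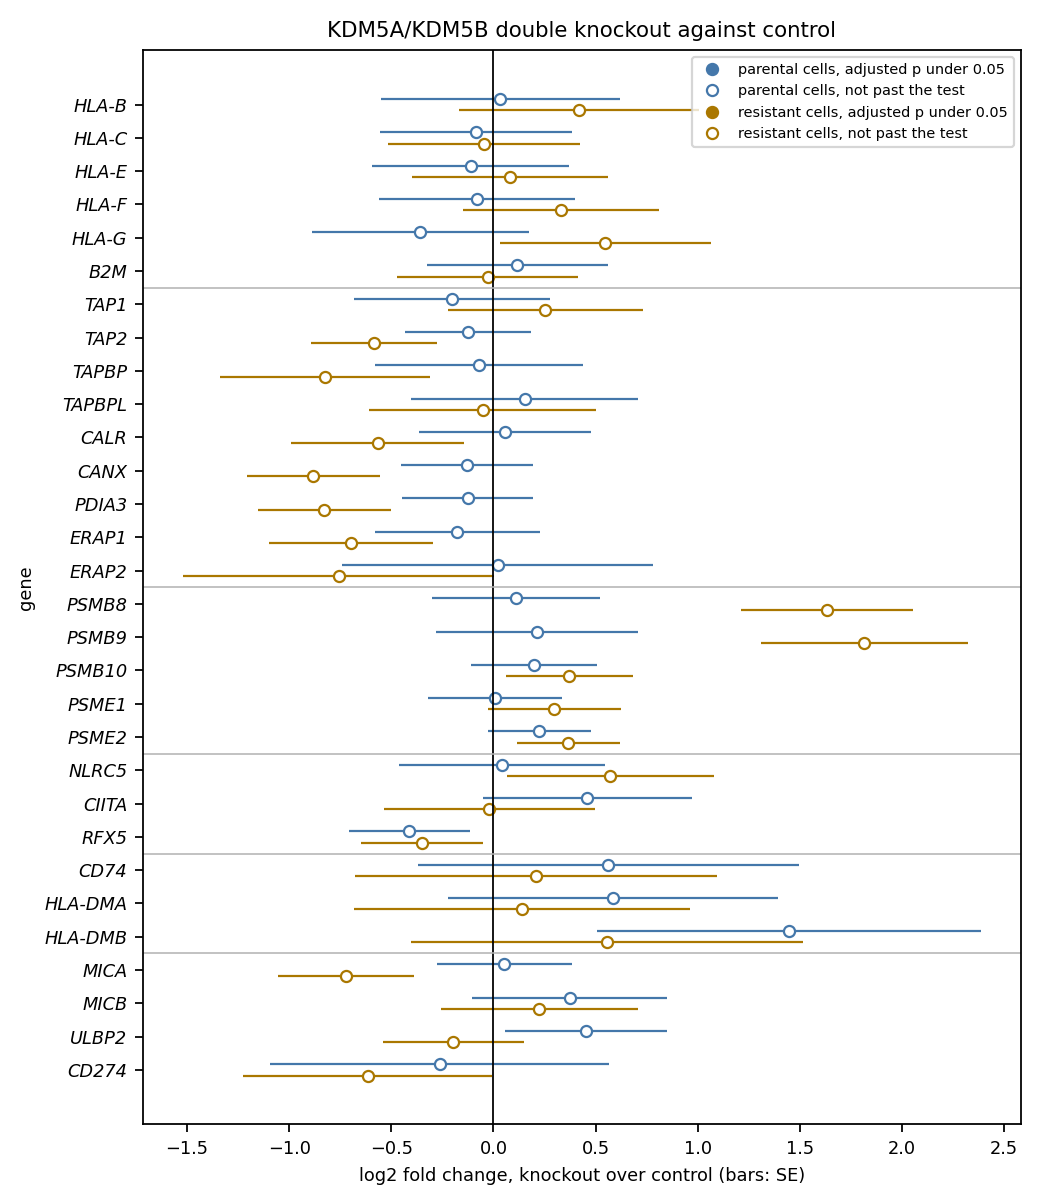
Log2 fold change of double-knockout over control cells for the 30 tested genes (x axis; bars are the standard error), in parental cells (blue) and resistant cells (brown), with genes ordered by role on the y axis. All points are open because none passed in the main edgeR fit, which had no block. PSMB8 at 1.63 and PSMB9 at 1.81 in resistant cells lie farthest to the right.

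The difference between the knockout effects in the 2 backgrounds was tested directly. Without a block, no member passed in edgeR, DESeq2 or limma-voom, where 0.0279% of all genes passed in edgeR. The members with an unadjusted p under 0.05 in that edgeR fit were PSMB8 (1.52 ± 0.58, unadjusted p = 0.0218) and PSMB9 (1.60 ± 0.70, unadjusted p = 0.04), with an adjusted p of 1 for both and a share of 3.78% over all genes. With a block for replicate number within backgrounds, edgeR called 274 of all genes. PSMB8 (1.60, adjusted p = 0.00689) and PSMB9 (1.53, adjusted p = 0.0243) were the members among them. Whether the numbers pair the resistant libraries is uncertain. For HLA-C the difference of effects was 0.04 ± 0.66 and for B2M -0.15 ± 0.62, standard errors larger than the differences themselves.

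Other genes of the pathway were read from fixed lists in resistant against parental cells, where 15.2% of all genes were called higher and 12.8% lower. Of 17 genes of interferon gamma signalling and MHC promoter binding, 3 were higher and 3 lower. Among the largest were SOCS1, a feedback inhibitor of JAK kinases (2.24 ± 0.51), IRF9, a DNA-binding subunit of an interferon-activated factor (2.00 ± 0.37), and NFYB, a CCAAT-binding subunit (-1.18 ± 0.28). IRF1, 1 of the factors that bind the response element, overlapped, at 58.6, 17.6 and 12.9 CPM against 27.3, 22.7 and 18.3. Of 19 constitutive proteasome and other class I processing genes, 5 were higher and 1 lower, led by PSMB6 (1.51 ± 0.37), the cytosolic peptidase TPP2 (-1.40 ± 0.23), the aminopeptidase LNPEP (1.25 ± 0.34) and the folding sensor UGGT1 (1.02 ± 0.27). Of 9 tested class II processing genes, 3 were higher and 1 lower. CTSS, the protease that removes the last of CD74 in antigen-presenting cells, fell by 3.34 on the log2 scale (SE 0.76), while the lysosomal proteases LGMN (3.07 ± 0.63) and CTSL (1.31 ± 0.37) rose. Of 19 tested checkpoint, co-stimulatory and NKG2D ligands, 5 were higher and 2 lower. The largest were TNFRSF14, the ligand of the inhibitory receptor BTLA (-6.73 ± 1.39), PDCD1LG2 (5.23 ± 0.99), the adhesion molecule ICAM1 (-4.28 ± 0.70) and the checkpoint gene VSIR (2.23 ± 0.62). Among knockouts the same lists had 4 higher and 2 lower, 2 and 1, 2 and 2, and 4 and 2, in that order, against 13.6% of all genes higher and 10.2% lower. The lists are small, and shares such as 3 of 17 or 2 of 19 stand near these backgrounds. Neither knockout comparison called a gene of these lists in the main edgeR fit.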

How the data were processed

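Poly(A) RNA from 12 libraries was made with a directional kit, per the labels' protocols. The build was GRCh38 and the tools listed were featureCounts 2.0.1, Trim Galore 0.6.10 and, for alignment software, STAR 2.7.10a, per the submitters' processing notes; annotation and strand setting for counting were not given in the sources used here. The deposited values were raw counts per gene, 15659352 to 19706754 per library. Of 59498 identifiers, 17947 passed edgeR's expression filter. A quasi-likelihood model with 1 mean per group over all 12 libraries and TMM scaling was fitted in edgeR 4.0.16 (R 4.3.3), with Benjamini-Hochberg adjustment over all genes and a threshold of 0.05; it was checked on simulated counts. DESeq2 1.42.0, limma-voom (limma 3.58.1), other scalings, filters, blocks and each library left out were alternatives. KDM5A and KDM5B were tested by exact permutation. Gene positions and exon lengths came from GENCODE 29.

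All 34 members are named; every library is given for those that passed in any contrast. Up to 4 genes of each pathway list are named, those with the largest change past the test at 1 CPM or more in the higher group. 1 gene that this rule would name is not reported here. The members and lists were chosen with earlier results of these data known. The labels do not say that replicates came from separate cultures, so p-values measure only the spread between these libraries. Same-numbered parental and parental knockout libraries deviated together (correlations 0.66, 0.77 and 0.78 of deviations from the group means), so the numbers pair them. In resistant cells those numbered 1 and 3 did (0.57 and 0.64) and those numbered 2 did not (-0.19), so pairing there is uncertain.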

Additional observations from a re-analysis of the deposited data

How the results depend on the processing

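The count of 9 members called between resistant and parental cells was between 7 (limma-voom, or the compared libraries alone) and 13 (DESeq2) under the alternatives that keep all libraries, and from 3 to 10 with a library left out, down to 5 without parental replicate 1 and 3 without parental replicate 2. Among knockouts the count of 8 was between 7 and 12 with all libraries and from 2 to 10 with a library left out: 4 without parental knockout replicate 1, 2 without parental knockout replicate 2, 2 without resistant knockout replicate 1 and 3 without resistant knockout replicate 2. For the knockout in resistant cells the 0 members became 2, PSMB8 and PSMB9, with no filter beyond 1 count, with DESeq2 and with a replicate block within backgrounds; that block gave 2 for the difference of the knockout effects as well. With the block, PSMB8 stood at 1.71 (adjusted p = 0.000144) and PSMB9 at 1.78 (adjusted p = 0.000347) in resistant cells, and at 1.60 (adjusted p = 0.00689) and 1.53 (adjusted p = 0.0243) for the difference. Same-numbered resistant and resistant knockout libraries deviated together for numbers 1 and 3 (0.57 and 0.64) but not for number 2 (-0.19). Whether the numbers pair them is uncertain, and so is the fit of this block to them. In the paired parental libraries the block called 0 members; a block of replicate number over all 12 libraries left the count for resistant cells at 0 and that for resistant against parental cells at 8, with HLA-C at 1.31 (adjusted p = 0.0549); among knockouts it called PSMB9 (1.22, adjusted p = 0.0218) and lost HLA-G (1.5, adjusted p = 0.062). Same-numbered libraries of parental and resistant cells did not deviate together (correlations from -0.16 to 0.16 without knockout and -0.44 to 0.17 among knockouts). Of 340 recomputed values of the 17 member calls, 283 stayed past the threshold, 57 did not and 0 changed sign, while 38 values not called came to pass. Besides PSMB8 and PSMB9, DESeq2 called ERAP2, HLA-F, TAP2 and TAPBP without knockout and CANX among knockouts, and dropping the filter called ERAP2, HLA-F, NLRC5 and TAPBP without knockout and ERAP2, HLA-B, HLA-DMB and TAP1 among knockouts. The cause of these changes was not tested. Counts over all genes moved too: for the knockout in parental cells from 0 to 83 with no filter, 11 with DESeq2, 1 with limma-voom and 154 with the block within backgrounds, and for the knockout in resistant cells from 38 to 451, 249, 42 and 939. For the difference of effects the 5 genes became 161, 67, 5 and 274. For resistant against parental cells the 5030 genes became 3081 without parental replicate 2, and among knockouts the 4281 became 2714 without resistant knockout replicate 2 and 2715 without replicate 1. Leaving out a resistant or resistant knockout library took the 38 genes to between 4 and 17. Scaling by library size alone moved the median of all genes by up to 0.15 on the log2 scale, among knockouts, and reversed no call. Class II genes with 4 reads or fewer in all libraries are at the limit of this depth.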
